A study of Mus musculus with 16 samples.

Results

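This is an account of 6 macrophage surface receptor genes, Siglec1, Fcgr1, Fcgr4, Fcgr2b, Fcgr3 and Cd300lf, in mouse cells after an injection of interferon alpha (IFNα). They were chosen by gene symbol, 6 of the 19752 genes with a probe set of their own, and each has 1 probe set of the 24922 on the array. The choice was made with earlier results of these arrays known, above all the macrophage levels, so the levels and the IFNα differences of the B10.Q macrophages are given as a description.

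RNA of cells sorted from male mice was measured on 16 Affymetrix Mouse Gene 1.0 ST arrays, which fall into 8 groups with 2 in each. Peritoneal macrophages (F4/80+ ICAM2+) came from 6-week-old knockout (KO) mice of the line B6.129S2-Ifnar1tm1Agt/Mmjax, which lack the receptor chain IFNAR1 in every cell, and from B10.Q/J mice aged 7 weeks, a strain known for a natural mutation of the receptor kinase Tyk2. Splenic CD4+ T cells (TCRB+ CD4+ CD8-) came from the same B10.Q/J strain. B10.Q mice received vehicle or 10000 units of IFNα under the skin and were killed at 2 h or 5 h. Each B10.Q vehicle pair joins array 1, of 2 h, with array 2, of 5 h. KO mice gave a pair at 2 h after IFNα and a pair whose titles name no IFNα. The preparation text of that second pair gives the same injection as the first, and the title was followed here. The source label of all 10 macrophage arrays is the peritoneal cavity, but in B10.Q the code Sp, shared with the T-cell titles from spleen, stands in 5 of 6 titles of macrophages, and only IFNα array 1 at 2 h has PC, as the KO titles do. The source label was followed, and the code splits the 2 h pair. Every B10.Q group carries the Tyk2 mutation, and mice with both Ifnar1 and Tyk2 intact are not analysed here. Strain, line and age differ together between KO and B10.Q and cannot be told apart. The titles of the KO pair without IFNα name neither vehicle nor hour. Where this pair is set against B10.Q, injection and time may differ with line too, and cannot be told apart from it. The labels do not say whether a group's 2 arrays come from different animals, so each p-value reflects only how far these samples scatter, which may be technical. In cells sorted as a population, fewer cells with a transcript and less transcript per cell cannot be told apart.

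Fcγ receptors bind the constant part of IgG and let a macrophage take up or kill what antibody has coated. FcγRI (Fcgr1), FcγRIII (Fcgr3) and FcγRIV (Fcgr4) activate the cell through the common γ chain, encoded by Fcer1g, whereas FcγRIIB (Fcgr2b) carries an inhibitory motif, known as ITIM, that recruits phosphatases. Siglec1 (sialoadhesin, CD169) is a lectin for sialic acid that captures particles and viruses on macrophages and is a known interferon-stimulated gene. Cd300lf encodes a receptor of the CD300 family that binds lipids of dying cells, carries ITIMs and serves mouse norovirus as its entry receptor.

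The labels were checked on defining genes. On the log2 intensity scale the 10 macrophage arrays held Gata6, which sets the identity of peritoneal macrophages, at 10.63 to 11.85 and the T-cell arrays at 6.57 to 7.21, with the 2 h pair at 11.31 (PC) and 11.44 (Sp), and all 12 macrophage markers on the array lay above the array median in every macrophage array. The probe set of Ifnar1 read 9.93 to 10.31 in KO and 10.09 to 10.46 in B10.Q macrophages, so it does not check the deletion. Mx1, another interferon-stimulated gene, read 6.14 to 6.43 in the KO arrays. In B10.Q macrophages Mx1 read 10.47 to 11.87 with IFNα and 6.12 to 6.15 with vehicle. Array medians lay between 173.57 and 193.70 intensity units, and the correlation over genes within a group was 0.984 to 0.997. KO IFNα array 1 had the lowest mean over the 12 macrophage markers, 11.82, against 12.01 to 12.29 in the other macrophage arrays. T-cell array 1 at 2 h stood apart the other way, with a mean over the same markers of 8.40 against 6.98 to 7.36 in the other T-cell arrays. T-cell vehicle array 1 has a title that begins with the code for B cells, and its Cd3e of 12.40 lay near the 12.46 of vehicle array 2.

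The promoters are shown to set Fcgr1, Fcgr4 and Cd300lf, which were higher than vehicle by 0.84 to 1.40 at 5 h, beside Fcgr3, the neighbour of Fcgr4 on chromosome 1, which was at -0.03. RefSeq promoter sequences matched 5 of the 6 genes, and Siglec1 was not among them. Each line gives the 250 bases before the annotated start, 5′ to 3′ on the gene's strand, in build GRCm38.p6: chr3:96293970-96294219 (minus strand) for Fcgr1, chr1:171018676-171018925 (plus strand) for Fcgr4, chr1:171059404-171059653 (minus strand, the first of 2 starts in the table) for Fcgr3 and chr11:115133993-115134242 (minus strand) for Cd300lf. Capitals mark every match to 2 motifs on either strand, which do not overlap here: the core of the interferon-stimulated response element (GAAA, any 2 bases, GAAA) and GAGGAA, the core that the myeloid factor PU.1 binds.
Fcgr1: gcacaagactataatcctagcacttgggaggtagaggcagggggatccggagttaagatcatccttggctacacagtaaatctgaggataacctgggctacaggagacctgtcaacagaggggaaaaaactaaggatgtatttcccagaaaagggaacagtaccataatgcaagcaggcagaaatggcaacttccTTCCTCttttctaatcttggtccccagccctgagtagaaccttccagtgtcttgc
Fcgr4: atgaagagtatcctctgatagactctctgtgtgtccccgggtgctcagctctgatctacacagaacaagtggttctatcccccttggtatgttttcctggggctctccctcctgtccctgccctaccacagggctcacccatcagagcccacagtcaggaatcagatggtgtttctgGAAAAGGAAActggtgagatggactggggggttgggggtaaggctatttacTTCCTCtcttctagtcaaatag
Fcgr3: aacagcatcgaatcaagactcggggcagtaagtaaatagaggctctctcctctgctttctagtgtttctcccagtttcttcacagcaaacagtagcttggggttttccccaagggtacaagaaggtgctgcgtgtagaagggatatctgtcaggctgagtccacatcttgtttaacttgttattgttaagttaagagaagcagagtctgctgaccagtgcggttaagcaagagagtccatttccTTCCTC
Cd300lf: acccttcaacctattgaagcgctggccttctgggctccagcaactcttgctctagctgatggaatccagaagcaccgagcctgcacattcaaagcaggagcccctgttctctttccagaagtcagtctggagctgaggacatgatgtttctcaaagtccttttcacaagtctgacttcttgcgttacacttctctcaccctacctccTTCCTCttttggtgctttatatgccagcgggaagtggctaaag
Fcgr4 held GAAAAGGAAA from 73 to 64 bases before its start, a match to the response element core, which 2.98% of all 32851 promoters in the table hold in the same window. All 4 printed promoters held 1 match to GAGGAA, as TTCCTC on the opposite strand, between 55 (Fcgr1) and 1 (Fcgr3) bases before the start, and 23.3% of promoters hold one. The window of Fcgr2b, at chr1:170976072-170976321 on the minus strand, held neither motif. A match is a description of letters, not evidence of binding. No other motif was searched, so a promoter without a match may hold other elements.

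Siglec1 was higher after IFNα in B10.Q macrophages and showed its highest values at 5 h. It read 7.66 and 7.96 with vehicle, 9.15 and 8.87 at 2 h, and 9.43 and 9.60 at 5 h. The 3 pairs did not overlap, with both 5 h arrays above both 2 h arrays. Siglec1 rose by 1.20 ± 0.17 at 2 h (log2 difference ± SE, n = 2 per group; 2.30-fold) and by 1.70 ± 0.17 at 5 h (3.25-fold, 95% interval 2.50 to 4.23). In KO macrophages, which cannot signal through IFNAR1, it read 7.86 and 8.20 with IFNα and 8.29 and 8.55 without, so both treated arrays lay below both others. In T cells, which should lack this lectin, all 6 arrays lay between 7.27 and 7.46, each below its array's median. From the highest group mean down, the order was B10.Q macrophages at 5 h (9.51), at 2 h (9.01), KO without IFNα (8.42), KO with IFNα (8.03), B10.Q vehicle (7.81), and the T-cell groups (7.43, 7.36 and 7.27). Among macrophage groups only KO with IFNα and B10.Q vehicle overlapped in their arrays.

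**Figure D1:**
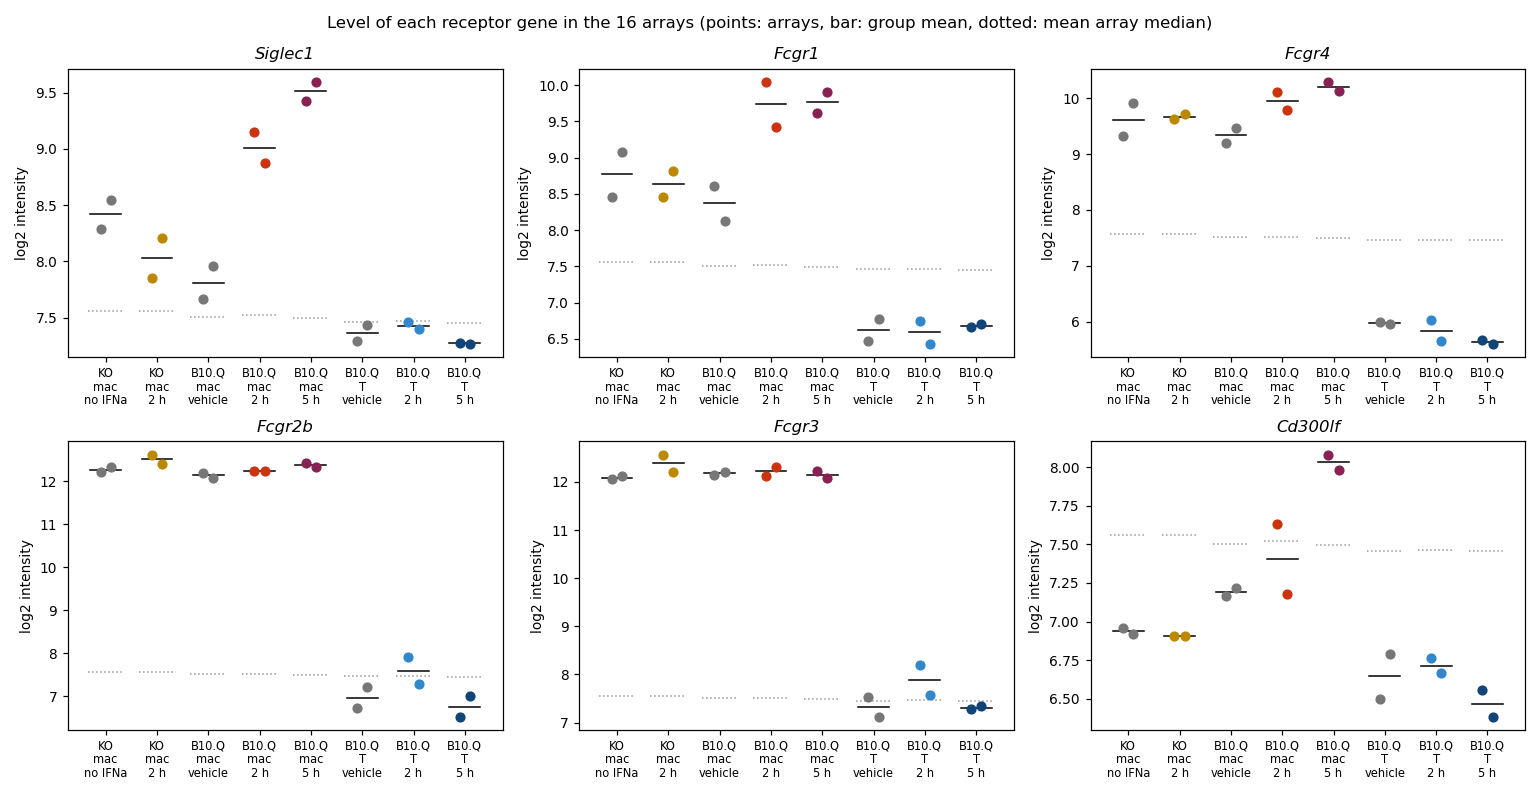
Log2 intensity (vertical axis) of the 6 receptor genes in the 8 groups (horizontal axis), with points for arrays, bars for group means and dotted lines for the mean array median of the group. Siglec1 lies at 9.43 and 9.60 in B10.Q macrophages at 5 h against 7.66 and 7.96 with vehicle, while Fcgr2b and Fcgr3 stay above 12 in every macrophage array and Cd300lf lies above the array medians only in 3 arrays with IFNα.

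Fcgr1, the receptor of high affinity for IgG, was higher at both times by about the same amount. It read 8.61 and 8.13 with vehicle, 10.05 and 9.42 at 2 h, and 9.61 and 9.91 at 5 h. All 4 IFNα arrays lay above both vehicle arrays, and the 2 h pair, which was 0.63 apart, enclosed the 5 h pair. The difference from vehicle was 1.37 ± 0.27 at 2 h (2.58-fold, 95% interval 1.70 to 3.90), which did not pass the threshold, and at 5 h Fcgr1 rose by 1.40 ± 0.27 (2.63-fold, 95% interval 1.74 to 3.98). KO arrays read 8.45 and 8.81 with IFNα and 8.46 and 9.08 without, and these pairs overlapped. T-cell values lay between 6.43 and 6.77, under the median of every array. The macrophage groups fell into B10.Q with IFNα, at means of 9.76 and 9.73, above the other 3, at 8.77, 8.63 and 8.37, with overlaps between neighbours inside each set.

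Fcgr4, an activating receptor that pairs with the γ chain like Fcgr1, showed a smaller difference in the same direction. Its vehicle arrays read 9.21 and 9.47, the 2 h arrays 10.12 and 9.80, and the 5 h arrays 10.30 and 10.12. No IFNα array overlapped with vehicle. The differences of 0.62 ± 0.19 at 2 h (1.53-fold) and 0.87 ± 0.19 at 5 h (1.83-fold, 95% interval 1.35 to 2.46) did not pass the threshold. The 5 h difference passed in a fit of the compared groups alone, in a fit of all 16 arrays and without KO IFNα array 1. KO arrays read 9.63 and 9.72 with IFNα, inside the range of 9.32 and 9.91 without. T-cell arrays lay between 5.60 and 6.03.

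Fcgr3 and Fcgr2b, which flank Fcgr4 on chromosome 1 and encode the other activating receptor and the inhibitory one, had high values in all macrophage arrays. Fcgr3 read 12.15 and 12.20 with vehicle, 12.13 and 12.31 at 2 h and 12.22 and 12.08 at 5 h. These pairs overlapped, and the differences were 0.04 ± 0.14 at 2 h and -0.03 ± 0.14 at 5 h, with 95% intervals from -0.27 to 0.35 and from -0.34 to 0.28. Fcgr2b read 12.20 and 12.08 with vehicle, 12.24 and 12.23 at 2 h and 12.44 and 12.32 at 5 h. Both IFNα pairs lay above vehicle, by 0.09 ± 0.12 and 0.24 ± 0.12, with upper interval bounds of 0.36 and 0.50. The KO arrays read 12.57 and 12.21 with IFNα against 12.05 and 12.13 without for Fcgr3, and 12.62 and 12.41 against 12.21 and 12.33 for Fcgr2b, so both genes were higher in both treated KO arrays. Their extracellular parts are close relatives, and the files do not give probe sequences, so signal shared between the probe sets of Fcgr2b and Fcgr3 cannot be told apart from each gene's own.

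Cd300lf was higher at 5 h than in any other group. It read 7.16 and 7.22 with vehicle and 7.63 and 7.18 at 2 h, where the pairs overlapped, and 8.08 and 7.98 at 5 h, above every other array. It rose by 0.84 ± 0.14 at 5 h (1.79-fold, 95% interval 1.43 to 2.24), and the difference at 2 h was 0.21 ± 0.14. KO arrays lay at 6.90 and 6.91 with IFNα and 6.96 and 6.92 without, and T-cell arrays between 6.38 and 6.79. Cd300lf passed the filter on low values through 3 of 10 macrophage arrays alone, 1 at 2 h and both at 5 h, so its entry into the test depended on its being high there. The other 5 genes lay above the median in all 10 arrays.

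With limma, 1 of the 6 genes, Siglec1, passed an adjusted p of 0.05 at 2 h, when 0.798% of the 10531 genes tested were called. At 5 h Siglec1, Fcgr1 and Cd300lf passed (3 of 6), when 0.836% of genes were called. Both IFNα arrays lay above both vehicle arrays for 4 of the 6 at 2 h and 5 of the 6 at 5 h, against 11.3% and 19.1% of all genes. Fcgr1 passed at 2 h with no filter, with the compared groups alone, with all 16 arrays, without IFNα array 2 (1.68) and without KO IFNα array 1. Nothing is read from these counts, since the genes were picked with these values known and both times share the vehicle arrays. Leaving out single arrays ended several calls. Siglec1 at 2 h was not called without IFNα array 1 (1.06 ± 0.21) or vehicle array 1 (1.05 ± 0.21), and at 5 h it stayed called without any array, at 1.55 to 1.85. Fcgr1 at 5 h was not called without any 1 of its 4 arrays, at 1.15 to 1.64, nor was Cd300lf, at 0.79 to 0.89. Fcgr1 at 5 h also lost its call with array medians subtracted (1.41), with quantile normalization (1.36), with every probe set and with the replicate block (1.40 in both).

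Against the vehicle array of the same hour alone, the 2 h differences were 1.35 for Siglec1, 1.12 for Fcgr1, 0.75 for Fcgr4 and 0.24 for Cd300lf. The 5 h differences were 1.55, 1.64, 0.73 and 0.81 in the same order. With 1 vehicle array left, Siglec1 was called at both hours and the other 3 genes at neither. Between 5 h and 2 h, limma called none of the 6 genes and 0.0095% of all genes. Cd300lf was higher at 5 h by 0.63 ± 0.14 (adjusted p = 0.626) and Siglec1 by 0.50 ± 0.17 (adjusted p = 0.904), with unadjusted p of 0.00143 and 0.0149, and both genes had both 5 h arrays above both 2 h arrays, as did 29.7% of genes.

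**Figure D2:**
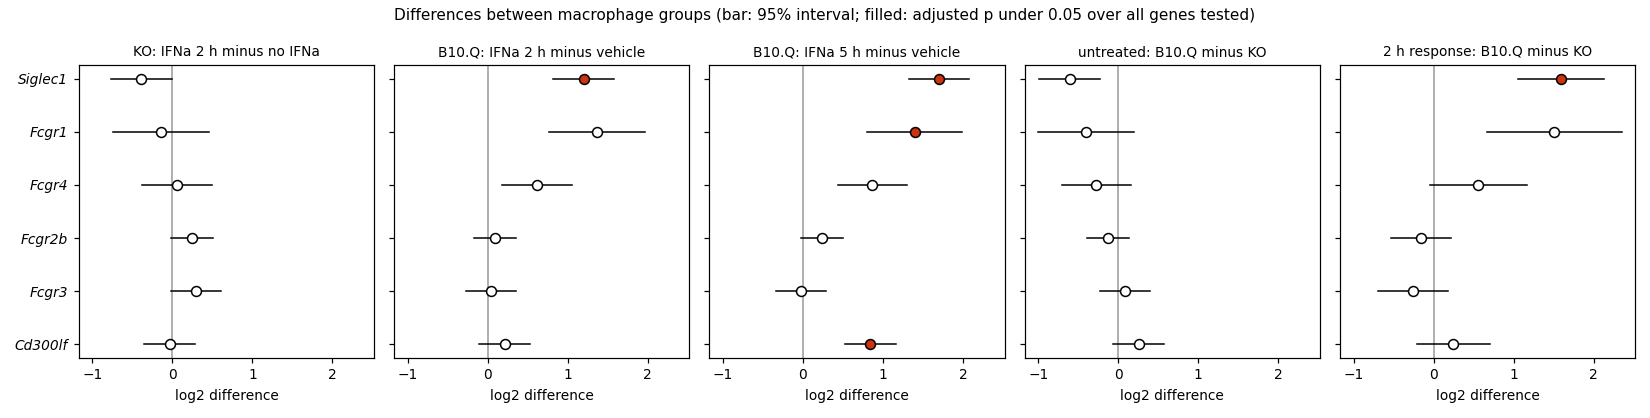
Log2 difference (horizontal axis) of each receptor gene (vertical axis) in 5 comparisons of macrophage groups, with 95% intervals from limma and filled points for an adjusted p under 0.05 over all genes tested. Siglec1 is filled at 1.20 and 1.70 against vehicle and at 1.59 for the difference between lines, Fcgr1 at 1.40 and Cd300lf at 0.84 at 5 h only.

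In KO macrophages the array pairs titled with and without IFNα were compared. With limma none of the 6 genes was called, and 0% of the 10531 genes were (460 had an unadjusted p under 0.05). Both treated arrays lay below both others for Siglec1 and Cd300lf and above them for Fcgr2b and Fcgr3, as did 10.3% and 11.5% of all genes. Siglec1 was at -0.39 ± 0.17 (95% interval -0.77 to -0.01, adjusted p = 1), Fcgr1 at -0.14 ± 0.27, Fcgr4 at 0.06 ± 0.19 and Cd300lf at -0.04 ± 0.14. Fcgr3 was at 0.30 ± 0.14 and Fcgr2b at 0.25 ± 0.12, and the γ chain gene Fcer1g, needed by the activating receptors, at 0.30 ± 0.11 (adjusted p = 1). Fcgr3 was at 0.48 ± 0.13 without KO IFNα array 2, when the treated group was array 1 alone, and at 0.12 ± 0.13 without array 1. B cells express Fcgr2b, and B cell markers differed between the KO arrays by array number. The mean over 7 B cell markers was 7.45 and 6.65 with IFNα and 7.22 and 6.76 without, with Ms4a1 at 7.89 and 7.54 in the arrays numbered 1 against 5.80 and 5.88 in those numbered 2. Their part in the values of Fcgr2b was not tested.

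Macrophages taken here as untreated were B10.Q with vehicle and KO without IFNα in the titles, so injection and hour may differ with line. They did not differ past the threshold in any of the 6 genes, when 0.541% of all genes were called. Both B10.Q vehicle arrays of Siglec1 lay below both KO arrays without IFNα, as in 24.4% of genes, with a difference of -0.61 ± 0.17 (0.66-fold, 95% interval 0.50 to 0.85, adjusted p = 0.216). Without KO IFNα array 1, which enters this fit only through the spread, the same difference was called. That fit also called more of all genes than the 0.541% given above, so the call is not particular to Siglec1. Fcgr1 was at -0.40 ± 0.27, Fcgr4 at -0.28 ± 0.19 and Fcgr2b at -0.13 ± 0.12, while Fcgr3 was at 0.09 ± 0.14 and Cd300lf at 0.25 ± 0.14. Fcrls, an Fc receptor-like gene of macrophages and microglia and the 1 gene called in 6 lists of related genes, read 6.76 and 6.94 in B10.Q vehicle and 7.56 and 7.78 in KO without IFNα, a difference of -0.82 ± 0.13. It passed the filter on low values only through those 2 KO arrays, which were high, so its call is not used as support.

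The difference of the 2 h responses asks whether B10.Q macrophages responded more than KO macrophages. It contains the B10.Q differences known when the genes were chosen, so it is given as a description and nothing is read from its calls. Siglec1 differed by 1.59 ± 0.24 (95% interval 1.05 to 2.13), made of 1.20 in B10.Q and -0.39 in KO. It was the 1 of the 6 genes past the threshold, when 0.408% of genes were. Fcgr1 differed by 1.51 ± 0.38 and Fcgr4 by 0.56 ± 0.27, with intervals of 0.66 to 2.35 and -0.05 to 1.17. Cd300lf was at 0.25 ± 0.20, Fcgr2b at -0.15 ± 0.17 and Fcgr3 at -0.25 ± 0.20. Siglec1 was no longer past the threshold when array 1 (1.72) or array 2 (1.46) of the KO group without IFNα was left out, without B10.Q IFNα array 1 (1.45), and without vehicle array 1 (1.44) or 2 (1.74). Fcgr1 was past it without KO IFNα array 2 (1.69).

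T cells served as cells that should hold little of these receptors. Of the 6 genes, Fcgr3 alone passed the filter among T-cell arrays. Fcgr3 read 7.53 and 7.12 with vehicle, 8.20 and 7.57 at 2 h, and 7.28 and 7.34 at 5 h, and Fcgr2b read 6.73 and 7.21, 7.91 and 7.28, and 6.52 and 7.00. The highest value of both genes was in array 1 at 2 h, the array with the mean of 8.40 over macrophage markers, where Fcer1g read 8.78 against 7.21 to 7.74 in the other T-cell arrays. Array 2 at 2 h had a marker mean of 7.36, against 6.98 to 7.06 in the vehicle and 5 h arrays. At 2 h Fcgr3 differed by 0.56 ± 0.21 (adjusted p = 0.763), when 0.287% of 10112 genes were called. With 1 array left at 2 h, Fcgr3 was at 0.88 ± 0.15 without array 2 and at 0.25 ± 0.15 without array 1. At 5 h it was at -0.02 ± 0.21, when 0.0198% of genes were called. The part of macrophage RNA in these values was not tested.

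Setting the B10.Q responses of macrophages and T cells against each other reuses the same known macrophage differences, and is likewise a description. At 5 h Siglec1 differed by 1.79 ± 0.18, Fcgr1 by 1.34 ± 0.30, Fcgr4 by 1.22 ± 0.21 and Cd300lf by 1.01 ± 0.20. Siglec1 and Fcgr4, 2 of the 6 genes, were past the threshold, when 0.251% of 11161 genes were (0.242% higher in macrophages). Both passed the filter on low values through the 6 macrophage arrays alone, where they are high, as did Fcgr1, and Cd300lf passed through 3 of them. Fcgr4 was no longer past the threshold without any 1 of the 8 arrays (1.08 to 1.35), with quantile normalization (1.21) or with all 16 arrays in the fit (1.22). For Fcgr4 the T-cell arrays contributed, at 5.66 and 5.60 at 5 h against 6.00 and 5.96 with vehicle, all far below the array medians. At 2 h none of the 6 was past the threshold and 0.0269% of genes were, with Siglec1 at 1.14 ± 0.18 and Fcgr1 at 1.40 ± 0.30.

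Other genes of these receptor families and pathways did not pass the test in B10.Q macrophages. Over 6 lists, limma called none of the 55 tested genes at 2 h or at 5 h. Among 3 tested of 14 other Fc receptor genes, Trim21, the cytosolic antibody receptor, was at 0.77 ± 0.18 at 2 h (adjusted p = 0.141) and at 0.71 ± 0.18 at 5 h (adjusted p = 0.194). Its arrays read 8.43 and 8.37 with vehicle, 9.38 and 8.95 at 2 h, and 9.03 and 9.19 at 5 h. No IFNα array overlapped with vehicle, and the 2 h pair enclosed the 5 h pair. Fcer1g stayed between 12.91 and 13.02 in all 6 B10.Q macrophage arrays, with differences of -0.02 ± 0.11 and -0.01 ± 0.11. The 20 tested genes of signalling below activating Fc receptors had a median of -0.13 at 2 h and -0.03 at 5 h, against -0.06 and -0.01 over all genes, with a range of -0.27 to 0.22 over both times. Among them Syk, the kinase that the γ chain recruits, was at -0.14 ± 0.16 and -0.16 ± 0.16. The 9 tested genes of phosphatases and adaptors below ITIM receptors had medians of -0.07 and -0.04.

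No relative of Siglec1 or Cd300lf was called at either time. Of 9 other Siglecs 3 were tested, with medians of 0.05 at 2 h and -0.13 at 5 h. Among them Cd33 was at 0.04 ± 0.13 and 0.24 ± 0.13. Of 11 other CD300 genes 5 were tested, with medians of -0.20 and -0.09 and the lowest value at -0.60 at 2 h, and Cd300ld was at -0.08 ± 0.18 and -0.09 ± 0.18. Complement and scavenger receptors, further uptake receptors of macrophages, had medians of 0.05 and -0.03 over 15 tested genes, with the lowest value at -0.75 at 5 h. Whether the 6 receptor genes differ from these lists was not tested.

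**Figure D3:**
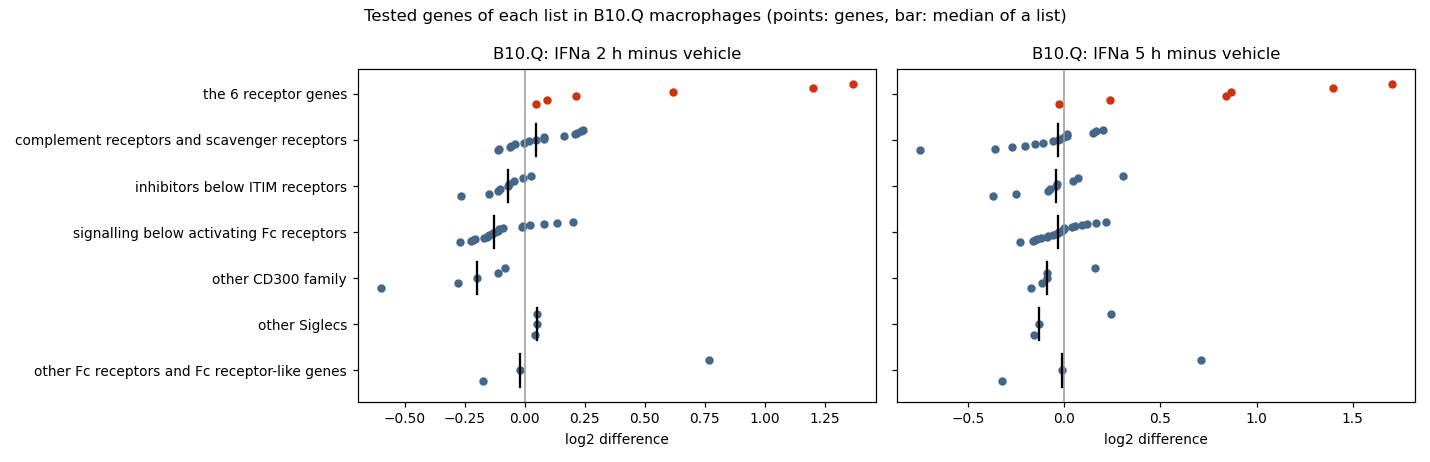
Log2 difference from vehicle (horizontal axis) in B10.Q macrophages at 2 h and 5 h for the tested genes of 6 lists and the 6 receptor genes (vertical axis), with points for genes and bars for list medians. List medians lie between -0.20 and 0.05, Trim21 is the point near 0.77 and 0.71 in the list of Fc receptors, and the receptor genes, picked with these values known, reach 1.37 and 1.70.

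Nearest profiles were taken over the 5 macrophage groups as the root mean square (RMS) difference between group means, each gene centred on its own mean. Siglec1 was nearest to Parp12 at 0.10 log2 units, Fcgr1 at 0.17 and Sp100, a nuclear body protein, at 0.18, where the median gene of 10530 lay at 0.64. Parp12, of the PARP family, was at 0.96 ± 0.22 at 2 h and 1.56 ± 0.22 at 5 h, and at -0.47 ± 0.22 in KO, with a later maximum as in Siglec1. Fcgr1 was nearest to Sass6, a centriole gene (0.09), Ifi203, a PYHIN family gene (0.09), and Znfx1, an RNA helicase gene (0.10), against a median of 0.60. These 3 genes had 2 h values of 1.25, 1.38 and 1.12 and 5 h values of 1.17, 1.25 and 1.16, each with SE of 0.16 to 0.20. Cd300lf was nearest to Gca, a calcium-binding protein gene (0.05), Camk2d, a calcium-dependent kinase gene (0.09), and Egr1, an immediate early gene (0.09), against a median of 0.41. At 5 h Camk2d was at 1.01 ± 0.16, Gca at 0.73 ± 0.20 and Egr1 at 0.83 ± 0.35. With limma Camk2d was called (adjusted p = 0.014), and Gca (adjusted p = 0.309) and Egr1 were not. Each distance given is smaller than the SE of the near gene's own differences, so the order of near genes is a description and was not tested. Fcgr4, Fcgr2b and Fcgr3 spanned 0.87, 0.37 and 0.30 between their macrophage group means, less than the 1 log2 unit required, and were not matched.

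**Figure D4:**
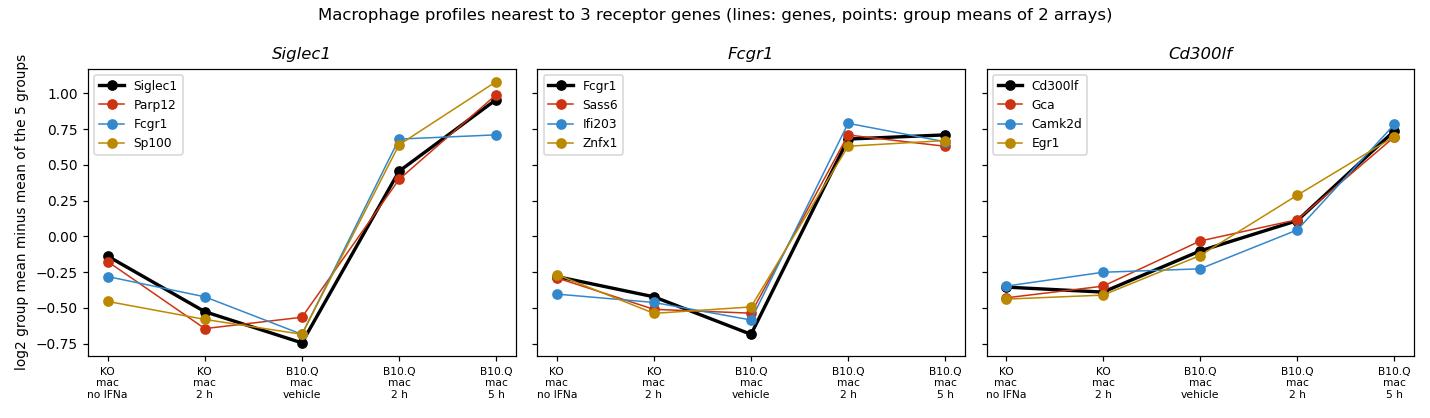
Group means of 2 arrays, centred on each gene's mean over the 5 macrophage groups (vertical axis, log2), for Siglec1, Fcgr1 and Cd300lf (black) and the 3 genes nearest to each, across the groups (horizontal axis). The lines of Fcgr1 and its neighbours are level from 2 h to 5 h, while those of Siglec1 with Parp12 and of Cd300lf with Gca are higher at 5 h.

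Inflammatory monocytes carry Fcgr1, and markers of other monocytes were not listed. In the B10.Q macrophage arrays the 4 markers of inflammatory monocytes had means of 8.24 to 8.84 with vehicle. The means were 8.39 to 8.84 at 2 h and 8.53 to 8.77 at 5 h. The single markers differed in direction. Vcan, a matrix proteoglycan, read 9.86 and 10.03 at 5 h against 8.97 and 9.30 with vehicle, and Chil3, a chitinase-like protein, 6.36 and 6.09 against 5.69 and 5.89, both without overlap. Ccr2, the chemokine receptor that defines these monocytes, read 7.17 and 7.85 against 7.77 and 8.66, and F13a1, a coagulation factor subunit, 10.73 and 11.10 against 10.55 and 11.50, both with overlap. Their part in the receptor values was not tested. The 9 neutrophil markers had means of 6.78 to 6.93 with vehicle, 6.91 to 6.92 at 2 h and 6.84 to 6.86 at 5 h. B cell markers had means between 6.58 and 6.68 in all 6 arrays, with Ms4a1 between 5.68 and 5.88. The 7 CD4 T cell markers lay below the array median in all 10 macrophage arrays.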

How the data were processed

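RMA and Affymetrix Power Tools are named in the submitters' processing notes as what the authors used; versions, genome build and whether all 16 arrays were normalized together are not given in the sources used here. The authors deposited 1 linear intensity for each probe set, and its log2 was used from there on without further scaling, so all levels and differences are on the log2 scale. Levels of different probe sets were not set against each other. Precision is limited by the number of arrays, which carry no read depth. Treatment and line followed the titles, tissue the source label where the title's code differs (5 B10.Q macrophage arrays), and cell type the cell family label for T-cell vehicle array 1. Platform annotation gave 1 symbol to 21425 probe sets, several to 1399 and none to 2098. The 6 members matched RefSeq GRCm38.p6 by Entrez identifier. A gene with several probe sets was represented by that of the highest mean.

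limma 3.58.1 in R 4.3.3 (lmFit, eBayes, two-sided) was fitted to the 10 macrophage arrays, the 6 T-cell arrays, and the 12 B10.Q arrays for differences between cell types. Genes above the array's own median on at least 2 arrays of a fit were tested. P-values were adjusted by Benjamini-Hochberg over all genes tested in a comparison, and called means an adjusted p under 0.05. Errors are SE, with n = 2 arrays per group. The fits were tested on simulated data with independent normal noise and arrays of equal quality. This does not show how they behave on these arrays. Named genes were the 6 members, called genes of the lists, and the 3 nearest profiles of members spanning at least 1 log2 unit; other list genes were named after their values were seen. Members and lists were chosen with earlier results of these data known. Promoter motifs were searched with Python 3.11.15.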

Additional observations from a re-analysis of the deposited data

Results flagged for a closer look

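3 differences in response between groups passed the threshold. All contain the B10.Q macrophage differences that were known when the genes were chosen, so they are values to look at again and not independent support. Siglec1 responded to IFNα at 2 h by 1.59 more in B10.Q than in KO macrophages, and passed no longer when any 1 of 5 of the 8 arrays was left out. Siglec1 at 5 h responded by 1.79 more in B10.Q macrophages than in T cells, and still passed whichever of the 8 arrays was left out. Fcgr4 at 5 h responded by 1.22 more, and passed no longer whichever of the 8 arrays was left out. With 2 arrays in each group, no array could be tested as far from its group.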

How the results depend on the processing

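The alternatives were another normalization, filter, variance model, choice of probe sets or of arrays in the fit, the replicate block, and leaving out each array in turn; leaving out KO IFNα array 1 from macrophage fits that do not compare it, and crossed replicate numbers, were added after seeing the data. The values given here count called members. At 2 h in B10.Q macrophages, where Siglec1 alone was called, 2 members were called with no filter, in a fit of only the groups compared and with all 16 arrays fitted at once, the added one being Fcgr1 each time. For the difference between macrophages and T cells at 2 h, 1 member, Siglec1, was called with array medians subtracted, no filter, and the trend and robust variance, against 0. At 5 h this difference had 1 call with quantile normalization and with all 16 arrays in the fit, and 4 with only the groups compared, against 2. With 1 array left out, of all genes 1191 were called in KO macrophages without IFNα array 2 against 0, 1817 in T cells at 2 h without IFNα array 2 against 29, and 387 between untreated lines without KO IFNα array 1 against 57. Counts of called members with 1 array left out ran from 0 to 1 in KO macrophages, 0 to 2 for B10.Q macrophages at 2 h, 1 to 4 at 5 h, 0 to 1 for untreated lines, 0 to 2 for the difference between lines, 0 to 1 for T cells at 2 h, 0 to 3 for macrophages against T cells at 2 h, and were 1 for macrophages against T cells at 5 h in each case. A lone array left in a group was taken to vary as the rest do. Over all alternatives no value called in the fits reported or in an alternative changed its sign. Same-numbered arrays deviated together at r between -0.29 (KO) and 0.15 over genes, and the numbers were not taken to pair the arrays. B cell markers such as Ms4a1 followed the array number in KO, so a correlation over all genes does not settle whether the numbers pair the arrays. With the replicate block 2 members were called at 5 h against 3, Fcgr1 being lost, and the other counts of members were as reported; with crossed numbers KO macrophages had 0 calls. The cause of these changes was not tested. Signal limits Cd300lf, which lay below the array median in vehicle and KO arrays.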
